A study of Rattus norvegicus with 6 samples.

Results

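The genes of the mitochondrial chromosome were described here in rat outer hair cells, the cochlear receptor cells whose length changes boost the response to faint sound. They were the 37 rows of the deposited gene table placed on chromosome MT, of 35790 genes in all, and the whole set was kept whatever its values. RNA sequencing was carried out on wild-type Sprague-Dawley (SD) rats at postnatal day 9, with 3 libraries from the apical turn, tuned to low frequencies, and 3 from the basal turn, tuned to high frequencies. Each library held 30 outer hair cells, identified by eye under the microscope after the turn had been digested with collagenase IV (1 mg/ml, 10 min), with RNA taken up in Trizol. Whether different animals gave the replicates of a turn is not stated in the labels, and p-values therefore reflect the spread between libraries alone, which may be technical. Values per library are given below in the order of replicates 1, 2 and 3.

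As background, the mitochondrial chromosome of mammals is a small circle that encodes a few core subunits of the respiratory chain and of ATP synthase, together with the ribosomal and transfer RNAs needed to translate them inside the organelle. Both strands are transcribed as long precursors that are cut apart mostly at the transfer RNA genes lying between the others, so that neighbouring genes are made from a shared transcript and differ afterwards by processing and decay. Outer hair cells carry dense mitochondria along their lateral wall. Variants in the human gene for the small mitochondrial ribosomal RNA are a known cause of sensitivity to aminoglycoside antibiotics, which damage basal outer hair cells before apical ones.

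Library totals ran from 16511675 to 23140976 per library, and 3 counts corresponded to 0.130 to 0.182 CPM (a count scaled to a library total of 1000000). Genes with a count numbered 16333, 13094 and 15915 in the apical and 11880, 11244 and 15668 in the basal libraries. Every one of 13 hair cell markers had counts in each library, and their summed share was 4.02%, 4.48% and 2.36% in the apical and 6.88%, 2.34% and 0.914% in the basal libraries. Ocm (listed as Ocm2), the calcium-binding protein oncomodulin, alone took 5.36% in basal replicate 1. The other 12 markers took 2.89%, 2.84% and 1.88% in the apical and 1.53%, 0.878% and 0.340% in the basal libraries. Without Ocm every basal library was thus below every apical one, but this rested on Calb1. Calb1 alone took 1.36% to 2.13% in apical and 0.202% to 0.939% in basal libraries. With both left out, 11 markers took 0.764%, 1.03% and 0.522% in the apical and 0.586%, 0.315% and 0.137% in the basal libraries, and the groups overlapped. Of the 13 markers, 10 had lower estimates in basal libraries (median log2 fold change -1.39). Among the 13, edgeR called 0 and DESeq2 called 2, Otof and Chrna9, both lower in basal libraries. Over all genes edgeR called 0 of 13507 and DESeq2 663 of 18073 (3.67%). Genes of other cell types were present too. Schwann cell markers took 0.0714%, 0.0859% and 0.0384% in the apical and 0.353%, 3.65% and 2.54% in the basal libraries, and the groups did not overlap. Of these 13 markers edgeR called 0 and DESeq2 called 10, all higher in basal libraries (median log2 fold change 6.75). Red blood cell markers took 0.0177% to 0.152% in apical and 0.246% to 1.14% in basal libraries, macrophage markers 0.0164% to 0.0370% in apical and 0.0242% to 0.207% in basal libraries, and fibrocyte and bone markers 0.247% to 0.396% in apical and 0.0865% to 2.54% in basal libraries. Supporting cell markers went the other way, with 0.125% to 0.607% in apical and 0.0270% to 0.1002% in basal libraries, without overlap. Neuron markers took 0.00742% to 0.0166% in apical and 0.0175% to 0.0632% in basal libraries, and stria vascularis markers overlapped. DESeq2 called 4 macrophage, 3 neuron, 2 fibrocyte and bone and 1 red blood cell marker, all higher in basal libraries. It called 1 supporting cell and 1 stria vascularis marker, both lower there. In bulk RNA of this kind, fewer cells of a type and less RNA per cell cannot be told apart. The part of other cell types in the mitochondrial values below was not tested.

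Of the 37 members, 13 carry a protein name in the deposited table. The other 24 have neither a gene name nor a description there and were classed by length alone: 22 are 60 to 75 bases long, the size of transfer RNA genes, and 2 are 958 and 1571 bases long, the size of the ribosomal RNA genes. They are called tRNA-sized and rRNA-sized below, with the identifiers of the table. By strand, 28 members lie on the plus and 9 on the minus strand, the minus ones being Mt-nd6 and 8 tRNA-sized genes. The library kit named in the labels does not record strand, so reads of a gene and of RNA from the opposite strand cannot be told apart. Nuclear genomes also hold copies of mitochondrial sequence, and no source used here says how reads matching both were counted.

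Counts were found for 17 of the 37 members: all 13 protein genes, both rRNA-sized genes and 2 of the 22 tRNA-sized genes. Together the 37 members took 6.13%, 8.02% and 4.46% in the apical and 14.2%, 9.33% and 7.56% in the basal libraries, as a percentage of all gene counts. The highest apical library was thus above the lowest basal library and the groups overlapped, with means of 6.20% ± 1.78 and 10.4% ± 3.47 (SD, n = 3 each). Wilson 95% intervals of these shares reached at most 0.0159 percentage points to either side, which covers counting error only. The difference of the means was 4.17 percentage points, and 2.24 without basal replicate 1, the library with the highest share.

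**Figure D1:**
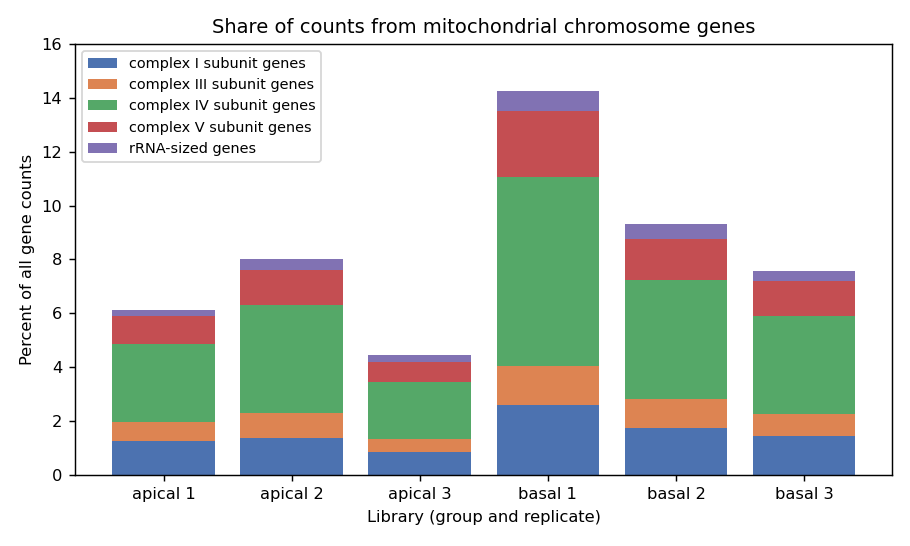
Percent of all gene counts (vertical axis) taken by mitochondrial chromosome genes in each of the 6 libraries, stacked by the respiratory complex of the encoded subunit and with the rRNA-sized genes on top; tRNA-sized genes are too few in counts to be seen. Basal replicate 1 stands highest at 14.2% and apical replicate 3 lowest at 4.46%, while basal replicate 3 lies below apical replicate 2.

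Messenger RNA of the protein genes made up nearly all mitochondrial counts, 93.7% to 96.2% of them per library. The rRNA-sized genes gave 3.76% to 6.29% and the tRNA-sized genes 0.0109% to 0.0166%. Members on the minus strand took 0.359% to 0.508% of mitochondrial counts. By the complex they serve, the 3 genes of complex IV held the largest part among the protein genes in all 6 libraries, 47.1% to 49.9% of mitochondrial counts. The 7 genes of complex I held 17.3% to 20.5%, the 2 genes of complex V 15.99% to 17.3%, and Mt-cyb, alone for complex III, 10.1% to 11.5%. Each of these shares overlapped between apical and basal libraries.

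Levels of different genes are compared next per gene length, as the authors' FPKM. All 97 mitochondrial FPKM values above 0 equalled the CPM divided by the listed gene length in kilobases, within a relative difference of 1e-06. Along the chromosome the highest levels lay between Mt-co1 and Mt-cox3, broken by the lower Mt-atp8, with a drop at Mt-nd3 and Mt-nd4l and another high point at Mt-cyb. Mt-cox3 (chromosome MT, 8599 to 9382, plus strand), a core subunit of cytochrome c oxidase, was at 15521, 24857 and 13150.4 FPKM in the apical and 33868, 26833 and 22632 in the basal libraries. Mt-nd3 (9451 to 9798, plus strand), a small complex I subunit that follows Mt-cox3 with a tRNA-sized gene between them, was at 369, 439 and 306 FPKM in the apical and 1262, 660.3 and 559 in the basal libraries. Per base Mt-cox3 thus had 26.8 to 56.6 times the counts of Mt-nd3, and this ratio did not overlap between apical (47.2 ± 8.16) and basal libraries (36.00 ± 7.93, SD, n = 3 each), a gene pair singled out after its values had been seen.

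The order of the 13 protein genes by FPKM was nearly the same in the 6 libraries. Mt-cox3 and Mt-atp6 led, followed by Mt-co2, by Mt-co1 and Mt-cyb in either order, and then by Mt-nd1, Mt-nd2, Mt-nd4, Mt-atp8 and Mt-nd5 in this order in all libraries. Mt-nd6, Mt-nd3 and Mt-nd4l came last in changing order. Spearman's rho between libraries, given as a description over 13 genes that share each library's depth, ran from 0.967 to 0.995 over the 15 pairs. Means over the 6 libraries went from 22810.2 FPKM for Mt-cox3 through 4940.3 for Mt-nd1 and 1555 for Mt-atp8 to 521 for Mt-nd4l. Mt-co1 (8200.3) and Mt-cyb (7924) did not differ beyond their spread, each being the higher in 3 of the 6 libraries.

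**Figure D2:**
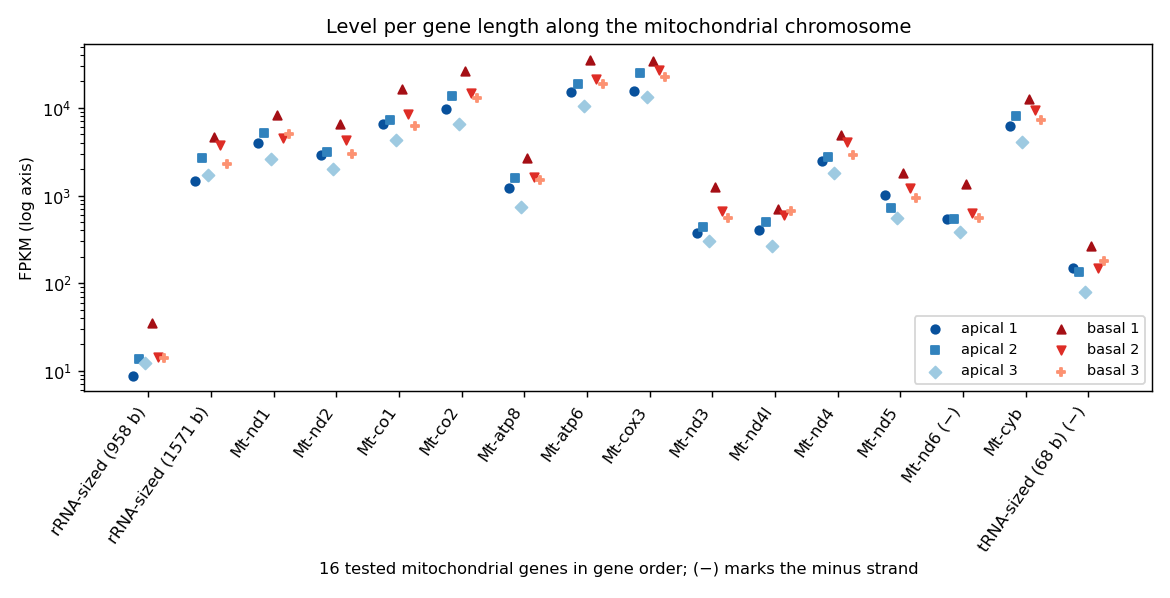
FPKM on a log axis (vertical) of the 16 mitochondrial genes with enough counts to be tested, in their order along the chromosome (horizontal), with 1 point per library, blue for apical and red for basal. The profile of high and low genes recurs in each library, from about 16.5 FPKM for the shorter rRNA-sized gene to 22810.2 for Mt-cox3 as means of the 6 libraries.

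Genes that lie side by side or overlap differed widely in level. Mt-atp8 and Mt-atp6, which encode membrane subunits of ATP synthase and share 43 bases, are translated from a shared messenger RNA in mammals, yet counts per base were 11.8 to 14.1 times as high for Mt-atp6 as for Mt-atp8. With shared bases left out of both lengths the ratio was still 9.98 to 11.9. Mt-nd4 and Mt-nd4l, complex I subunits that also share a messenger RNA and overlap by 7 bases, differed per base by a factor of 4.39 to 6.95. In each pair the lower gene is the shorter: Mt-atp8 is 204 bases, Mt-nd4l 297 and Mt-nd3 348, while the other 10 protein genes are at least 519 bases long. Among those 10 genes length and mean FPKM had a Spearman's rho of -0.261, against 0.330 over all 13, given as descriptions. The part of fragment length and of the rule for reads in overlaps, neither of which is given in the sources used here, was not tested.

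Mt-nd6 (chromosome MT, 13543 to 14061, minus strand), the protein gene that mammals transcribe from the opposite strand, overlaps Mt-nd5 by 23 bases at its end. Its counts were 6386, 5189 and 4653 in the apical and 13016, 5425 and 5800 in the basal libraries. Mt-nd5, the longest of the genes and a proton-pumping subunit of complex I, had 1.32 to 1.91 times its counts per base, and Mt-cyb on its other side 9.25 to 14.9 times. The opposite-strand gene was thus lower per base than both neighbours. Its mean over the 6 libraries, 668 FPKM, was nonetheless above those of the plus-strand genes Mt-nd3 (599) and Mt-nd4l (521).

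The rRNA-sized genes lie next to each other near the start of the numbering, parted by a tRNA-sized gene. The shorter (AY172581.9, 68 to 1025, plus strand) had counts of 193, 244 and 274 in the apical and 623, 230 and 274 in the basal libraries. The longer (AY172581.24, 1094 to 2664, plus strand) had 52502, 78272 and 62267 in the apical and 136437, 96604 and 72718 in the basal libraries. Every library thus held 134 to 256 times as many counts per base on the longer as on the shorter gene, a gap far wider than the spread between libraries. Mt-nd1, the complex I gene that follows, had 1.23 to 2.70 times the counts of the longer rRNA-sized gene per base. The labels do not say whether ribosomal RNA was removed or RNA with a poly(A) tail selected, and the part of either step was not tested.

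Of the 22 tRNA-sized genes, 20 had 0 counts in all 6 libraries, which allows up to 0.130 to 0.182 CPM per library at the floor of 3 counts. A further gene (AY172581.21, chromosome MT, 3761 to 3831, minus strand) had 1 count, in basal replicate 1. The remaining gene (AY172581.2, chromosome MT, 15348 to 15415, minus strand), the last member in the numbering, had counts of 232, 168 and 126 in the apical and 335, 168 and 245 in the basal libraries. Per length it stood at 149, 133 and 80.1 FPKM in the apical and 267, 149.6 and 177 in the basal libraries, above the shorter rRNA-sized gene in every library. Nuclear genes of 60 to 75 bases were also mostly without counts: 55 of 466 (11.8%) had any.

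According to its design text, the study sets the gene expression of the basal against the apical cells because the groups differ in structure, function and vulnerability. All 16 mitochondrial genes with enough counts to be tested were higher in basal than in apical libraries, with log2 fold changes from 0.71 to 1.26, and none passed. In the quasi-likelihood test of edgeR, Benjamini-Hochberg adjustment over 13507 genes gave an adjusted p of 0.622 to 1 for them, and 0 of all genes (0%) passed. Mt-nd3 alone of the 16 had an unadjusted p below 0.05 (0.0266), as did 811 of all genes (6%), 287 of them (2.12%) higher in basal libraries. Under the alternatives tried this number ran from 0 to 11 members. DESeq2 called 0 of the 16 (adjusted p 0.252 to 0.639) and 663 of 18073 genes (3.67%). The authors' deposited table lists adjusted p of 1 for all 17 members with counts, and adjusted p under 0.05 for 107 of 20038 genes.

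The median log2 fold change was 0.87 over the 13 protein genes and -0.02 over all genes tested, of which 49% were above 0. Of all genes tested, 25.3% had a log2 fold change at least as high as that of the lowest protein gene. Mitochondrial genes share their transcripts and their libraries, so their common direction is not 16 separate observations. Without basal replicate 1 the median of the protein genes was 0.47, and without basal replicates 2 and 3, which had the highest Schwann cell shares, it was 1.44, with the median of all genes then at -1.21. After TMM scaling, a between-library scaling by a trimmed mean of ratios, the groups did not overlap for 6 of the 16 (37.5%), against 15.8% of all genes and 5.4% with the basal libraries higher. Those 6 were Mt-atp6, Mt-nd3, Mt-nd4l, Mt-nd4, Mt-nd6 and the shorter rRNA-sized gene.

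**Figure D3:**
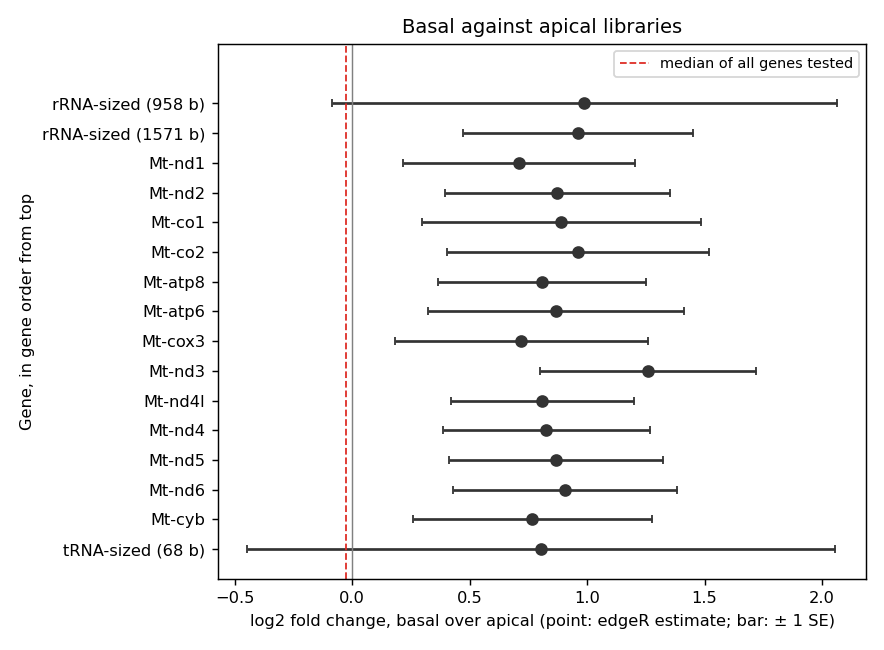
Log2 fold change of basal over apical libraries (horizontal axis; points are edgeR estimates, bars 1 SE to either side) for the 16 tested mitochondrial genes in gene order from the top. The estimates lie between 0.71 and 1.26, to the right of the median of all genes tested at -0.02 (dashed line).

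Among the genes of complex I, the entry point for electrons from NADH, Mt-nd3 had the largest log2 fold change of the 16. Its level was 128, 153 and 106 CPM in the apical and 439, 229.8 and 194 CPM in the basal libraries. All basal libraries were above all apical ones, with a ratio of mean CPM of 2.23 and a log2 fold change of 1.26 (SE 0.46); edgeR's adjusted p was 0.622. Mt-nd4l, a small membrane subunit, was at 119, 149 and 79.5 CPM in the apical and 207, 178 and 195 CPM in the basal libraries. The basal values lay close together and above the apical ones, with a log2 fold change of 0.81 (SE 0.39). Mt-nd4, a proton-pumping subunit, was at 3440.3, 3790.1 and 2498 CPM in the apical and 6685, 5654 and 3977 CPM in the basal libraries, with a log2 fold change of 0.83 (SE 0.44). For it too the lowest basal library, replicate 3, was above the highest apical one.

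Mt-nd1, the subunit next to the ubiquinone site, was at 3765, 4890.2 and 2515 CPM in the apical and 7916, 4359 and 4863 CPM in the basal libraries. Basal replicates 2 and 3 both lay below apical replicate 2, and the log2 fold change of 0.71 (SE 0.49) was the smallest of the 16. Mt-nd2, another proton-pumping subunit, was at 2986, 3259.7 and 2084 CPM in the apical and 6724, 4506 and 3079.9 CPM in the basal libraries. Basal replicate 3 lay within the apical range, and the log2 fold change was 0.87 (SE 0.48). Mt-nd5 was at 1877, 1324 and 1007 CPM in the apical and 3291, 2214 and 1705 CPM in the basal libraries, again with basal replicate 3 inside the apical range and a log2 fold change of 0.87 (SE 0.46). Mt-nd6 was at 279, 279 and 201 CPM in the apical and 705, 329 and 286 CPM in the basal libraries. Its basal replicate 3 exceeded apical replicate 1 by only a little, and its log2 fold change was 0.91 (SE 0.48).

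Mt-cyb encodes the cytochrome b of complex III, which passes electrons from ubiquinol to cytochrome c. It was at 7047, 9131 and 4683 CPM in the apical and 14364, 10706 and 8410.4 CPM in the basal libraries, with a log2 fold change of 0.77 (SE 0.51). Basal replicate 3 lay below apical replicate 2, so the groups overlapped.

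The core subunits of complex IV, which hands electrons to oxygen, are Mt-co1, Mt-co2 and Mt-cox3. Mt-co1, the subunit with the oxygen-binding site, was at 10068, 11261 and 6573 CPM in the apical and 25366, 13204 and 9543 CPM in the basal libraries. Basal replicate 3 was lower than apical replicates 1 and 2, and the log2 fold change was 0.89 (SE 0.59). Mt-co2, the subunit that receives electrons from cytochrome c, was at 6641, 9265 and 4489 CPM in the apical and 18166, 10079 and 8903 CPM in the basal libraries with a log2 fold change of 0.96 (SE 0.56). Mt-cox3 was at 12168, 19488 and 10309.9 CPM in the apical and 26552, 21037 and 17744 CPM in the basal libraries with a log2 fold change of 0.72 (SE 0.54). In both, basal replicate 3 lay below apical replicate 2. Mt-cox3 was the gene of highest count in apical replicate 2 and basal replicate 2, and stood at rank 2 or 3 in the other libraries.

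Of the ATP synthase genes, Mt-atp6, whose product forms part of the proton path, was at 10261, 12649.8 and 7167 CPM in the apical and 24069, 14582 and 12782 CPM in the basal libraries. The groups touched without overlap, basal replicate 3 exceeding apical replicate 2 by about 132 CPM, and the log2 fold change was 0.87 (SE 0.54). Mt-atp8 was at 247, 320.2 and 153 CPM in the apical and 542, 335 and 307 CPM in the basal libraries, with basal replicate 3 below apical replicate 2 and a log2 fold change of 0.81 (SE 0.44). The longer rRNA-sized gene was at 2298, 4204 and 2691 CPM in the apical and 7391, 5851 and 3582 CPM in the basal libraries, with basal replicate 3 below apical replicate 2 and a log2 fold change of 0.96 (SE 0.49). For the shorter rRNA-sized gene (AY172581.9) the log2 fold change was 0.99 (SE 1.07), and for the tRNA-sized gene with counts (AY172581.2) 0.80 (SE 1.25). These estimates had the widest errors of the 16, from levels of 8.45, 13.1 and 11.8 CPM in the apical and 33.8, 13.9 and 13.5 CPM in the basal libraries for the former.

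Basal replicate 1 was the highest library for all 16 genes, and apical replicate 3 the lowest for 14 of them. For the protein genes basal replicate 1 was at 1.79 to 3.40 times the apical mean in CPM, and the mean of basal replicates 2 and 3 at 1.21 to 1.64 times that mean. Among basal libraries, basal replicate 1 had the lowest Schwann cell marker share, 0.353%. Its summed hair cell marker share of 6.88% was the highest of the 6 libraries, but with Ocm left out it was 1.53%, the highest of the basal libraries and below the 3 apical ones. With Calb1 left out too it was 0.586%, above the 0.522% of apical replicate 3. Apical replicate 3 had the lowest hair cell marker share of the apical libraries and the highest supporting cell marker share. The latter was 0.289%, 0.125% and 0.607% in the apical libraries, each above the 0.0270% to 0.1002% of the basal libraries. Basal replicates 1 and 2, with the highest mitochondrial shares, also had the fewest genes with a count (11880 and 11244). Basal replicate 3, at 15668 genes, lay within the apical range of 13094 to 16333. The part of these marker shares and gene numbers in the mitochondrial difference was not tested.

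Within the mitochondrial counts the make-up of apical and basal libraries was close. As a share of mitochondrial counts, which does not depend on how libraries are scaled, 1 of the 16 genes (6.25%) did not overlap between the groups. Of all genes divided by the same totals, 23.1% did not overlap. The members make up that total and nuclear genes do not, so these percentages cannot be set against each other. That gene was Mt-nd3, at 0.209%, 0.190% and 0.239% in the apical and 0.308%, 0.246% and 0.257% in the basal libraries. The log2 ratio of mean shares was 0.35 for Mt-nd3 and -0.10 to 0.12 for the other 15 genes. The steadiest gene was Mt-atp6, at 16.7%, 15.8% and 16.1% in the apical and 16.9%, 15.6% and 16.9% in the basal libraries. The widest spread was in the shorter rRNA-sized gene (AY172581.9), whose highest share was 1.93 times its lowest, and in Mt-nd5, at 3.06%, 1.65% and 2.26% in the apical and 2.31%, 2.37% and 2.25% in the basal libraries. In Mt-nd5 the spread lay among the apical libraries, the basal ones being nearly equal.

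**Figure D4:**
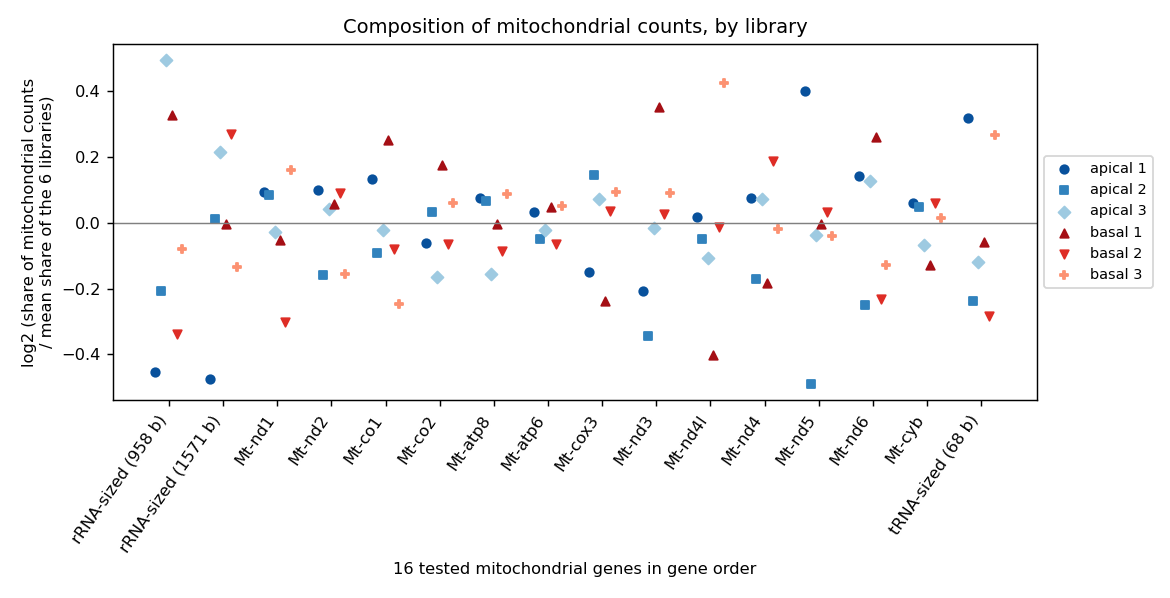
Share of each library's mitochondrial counts taken by each of the 16 tested genes, as the log2 ratio to the mean share over the 6 libraries (vertical axis), in gene order (horizontal axis); blue points are apical, red points basal libraries. The points of the groups intermingle for 15 genes, and for Mt-nd3 the 3 basal libraries lie above the 3 apical ones.

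The ratio of rRNA-sized to protein gene counts, on the log2 scale, was -4.68, -4.17 and -3.95 in the apical and -4.18, -3.90 and -4.32 in the basal libraries. The means differed by 0.13, less than the spread between libraries, and the difference turned to -0.07 without apical replicate 1. Within complex IV, counts per base were 1.49 to 2.11 times those of Mt-co1 for Mt-co2 and 2.06 to 3.66 times for Mt-cox3, and both ratios overlapped between the turns.

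Mitochondrial genes are transcribed, processed and translated by proteins that the nucleus encodes, and these genes were taken from 7 lists. Of 183 listed genes 179 were matched and 172 could be tested. By edgeR 0 of them passed, 1 had an unadjusted p under 0.05 (0.581%, against 6% of all genes), and DESeq2 called 0. Their median log2 fold change was -0.13, with 70 above and 102 below 0, beside the -0.02 of all genes.

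The gene with the small p was Polrmt, the RNA polymerase of mitochondria, at 79.4, 60.5 and 125 CPM in the apical and 17.3, 39.1 and 18.7 CPM in the basal libraries. All basal libraries were below all apical ones, with a log2 fold change of -1.77 (SE 0.59), and edgeR's adjusted p of 0.495 did not pass. Tfam, which packs mitochondrial DNA and opens its promoters, was at 73.1, 104 and 96.1 CPM in the apical and 29.04, 106 and 55.7 CPM in the basal libraries, with overlapping groups. Tfb2m, which melts the promoter with Polrmt, was at 31.2, 20.8 and 24.9 CPM in the apical and 20.6, 15.1 and 16.7 CPM in the basal libraries, a log2 fold change of -0.47 (SE 0.86). Tefm, the elongation factor, had counts of 10, 60 and 816 in the apical and 206, 273 and 624 in the basal libraries, a wide spread within the apical group. Over the 9 genes of transcription the median was 0.13, and over 8 tested genes of replication -0.59. In the latter list Twnk, the helicase, was at 21.3, 17.6 and 17.03 CPM in the apical and 26.00, 33.2 and 10.7 CPM in the basal libraries, and Polg, the DNA polymerase, had counts of 215, 410 and 23 and 1, 0 and 149.

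Genes that cut, stabilise or degrade mitochondrial RNA had a median log2 fold change of -0.18 over 27 tested genes, 12 above and 15 below 0. Lrpprc, which with Slirp stabilises mitochondrial messenger RNA, was at 161, 19.9 and 89.7 CPM in the apical and 67.2, 102 and 93.8 CPM in the basal libraries. Slirp was at 11.03, 18.3 and 16.4 CPM in the apical and 42.7, 19.3 and 22.6 CPM in the basal libraries, every basal library lying above every apical one, with a log2 fold change of 0.99 (SE 0.90, edgeR adjusted p = 1). Other factors were patchy between libraries. Trmt10c, a subunit of the enzyme that cuts transfer RNAs at their front end, had counts of 768, 202 and 1505 in the apical and 0, 0 and 1468 in the basal libraries. Prorp, its nuclease subunit, had 229, 154 and 285 and 1464, 328 and 172, with their dehydrogenase partner Hsd17b10 at 51, 44 and 72 and 57, 14 and 87. Scaled to library totals, Trmt10c and Hsd17b10 were highest in basal replicate 3 and Prorp in basal replicate 1. Elac2, which cuts the rear end, had 381, 404 and 323 and 2, 1111 and 480. Decay and tailing factors varied as much. Supv3l1, the helicase of the degradosome, had counts of 1067, 817 and 1027 and 1, 7 and 970, while its nuclease partner Pnpt1 had 894, 888 and 474 and 484, 681 and 1519. Mtpap, the poly(A) polymerase, had 724, 538 and 499 and 70, 0 and 409. Trmt10c, Elac2, Supv3l1, Mtpap and Polg thus had counts at or near 0 in 1 or 2 basal libraries and higher counts in another. These low counts fell in basal replicates 1 and 2, the libraries with the fewest genes with a count (11880 and 11244). The part of that in the low counts was not tested.

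For the translation machinery the median log2 fold change was -0.04 over 78 mitochondrial ribosomal protein genes, 35 above and 43 below 0, -0.36 over 13 translation factors and -0.36 over 16 aminoacyl-tRNA synthetases. Nuclear genes of general mitochondrial structure and import, such as porins and translocases, had a median of -0.18, with 4 of 21 genes above 0. Their summed share of counts was 0.796%, 0.834% and 0.978% in the apical and 0.502%, 0.608% and 0.836% in the basal libraries. The summed share of that list was lowest in basal replicate 1, the library with the highest share of mitochondrial chromosome genes. The transcription, translation factor and aminoacyl-tRNA synthetase lists were lowest in that library too. The replication list was highest there (0.0309%). The RNA processing (0.0814%) and ribosomal protein lists (0.721%) lay there within the range of the other libraries. No difference between these lists and the mitochondrial chromosome genes was tested.

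**Figure D5:**
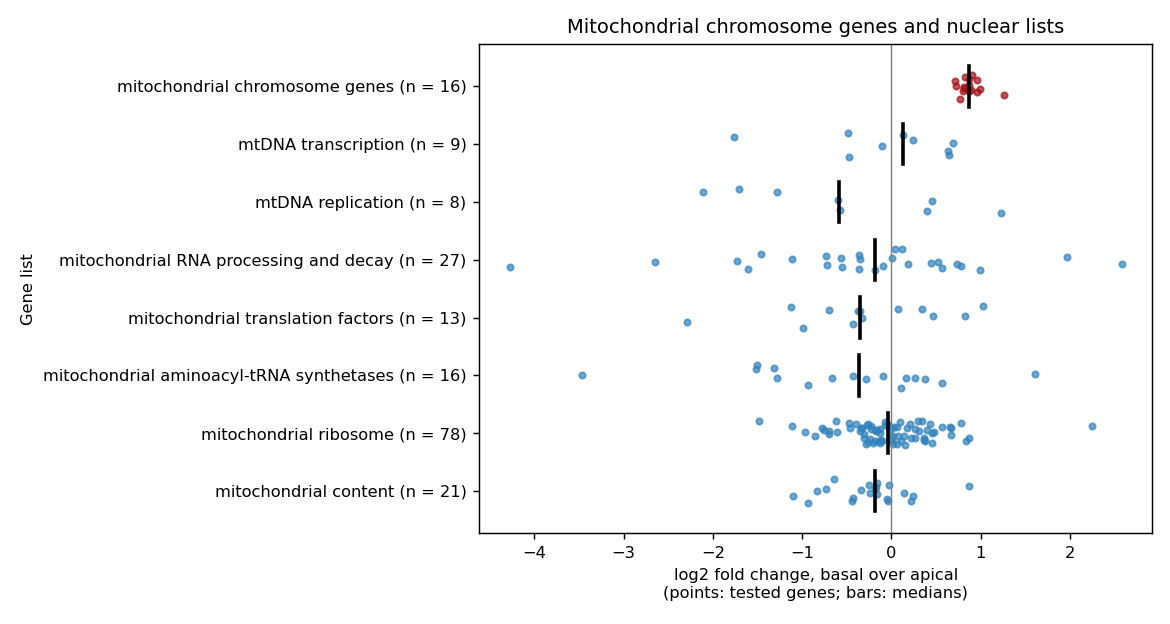
Log2 fold change of basal over apical libraries (horizontal axis) for the 16 tested mitochondrial chromosome genes (red, top) and the tested genes of 7 nuclear lists (blue); each point is a gene and each bar a list's median. The mitochondrial chromosome genes lie between 0.71 and 1.26, while list medians lie between -0.59 and 0.13.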

How the data were processed

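The authors' deposited table holds a read count (whole numbers) for each gene in each library, and an FPKM value beside it, per the file headers. Reads were aligned with TopHat2 2.0.12 and Bowtie2 2.2.3, per the submitters' processing notes; no source used here names the counter, build, annotation or differential test, so positions are printed as the table lists them. The deposited log2 fold changes, p-values and mean normalized counts (a signal per group) of the authors were used only where named, the last not at all.

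The deposited counts were tested with edgeR 4.0.16 in R 4.3.3: filterByExpr left 13507 genes, of which 16 were mitochondrial, with TMM scaling and the default quasi-likelihood test of basal against apical libraries (no covariate, adjusted p under 0.05 over all genes). Each standard error (SE) was derived from the fold change and its F statistic, as |log2 fold change| over the root of F. DESeq2 1.42.0 and limma 3.58.1 (voom, and a trend fit on log2(FPKM + 1)) were alternatives, with other scalings and count filters and each library left out. The fits were tested on simulated counts. Tables and figures used Python 3.11.15 with pandas 2.3.3.

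The members, gene lists and tests were chosen with earlier results of these data known. All 13 protein and 2 rRNA-sized genes were named; of the 5 tRNA-sized genes of highest mean count, 3 were at 0 in every library. From the nuclear lists 15 core factors were named in any case. Older symbols were matched through a RefSeq gene table for GRCr8 used only for names: 6 pathway genes by older symbols, 4 not matched. The replicate numbers were not taken as pairs, though a pairing was not excluded.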

Additional observations from a re-analysis of the deposited data

How the results depend on the processing

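All 16 log2 fold changes stayed above 0 and none passed under any of the 20 alternatives, with values from 0.29 to 1.97 and a lowest adjusted p of 0.0622, the latter without basal replicates 2 and 3. That setting was chosen after seeing the data and leaves 1 basal library, assumed to vary like the apical ones. It called 289 of all genes and moved the median of the protein genes to 1.44 and the difference in mitochondrial share to 8.04 percentage points. Among all genes, 8 were called without a filter on low counts, 663 by DESeq2, 28 by the bias-adjusted quasi-likelihood test and 0 to 2 with a library left out (2 without basal replicate 1), against 0 in the main test. With a library left out the median of the protein genes was 0.47 to 1.06, the share difference 2.24 to 5.58 percentage points and the log2 rRNA-sized to protein ratio difference -0.07 to 0.29. Limma-voom and the replicate block lowered the median of all genes to -0.48 and -0.38, with medians of 0.80 and 0.80 for the protein genes. The FPKM fits lowered the median of all genes to -0.27, and to -0.42 with 0.1 added in place of 1. The protein genes then had medians of 0.73 and 0.73. Without basal replicate 3 the median of all genes was -0.20. Same-numbered libraries deviated from their group means with correlations of -0.0384, 0.00667 and 0.138 over all tested genes. Differently numbered libraries had -0.136 to 0.102, so the value for the replicates numbered 3 was the highest of any apical and basal pair. The numbers were not taken as pairs, but these values cannot exclude a pairing. The replicate block changed no call (0 genes). AY172581.9 and AY172581.2 had the fewest counts and the widest errors of the tested members; the cause of the errors was not tested. Members with an unadjusted p below 0.05 numbered 9 of 16 by limma-voom (of 1440 genes in all), 4 by the bias-adjusted test, 7 of 17 without a count filter, 2 on the FPKM values, 0 to 6 with a library left out (6 without basal replicate 3, 0 without basal replicate 1 or any apical replicate) and 11 without basal replicates 2 and 3.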
